A study of Mus musculus with 246 samples.

Results

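The activin and follistatin genes are 6 of the 56691 genes in a count table of libraries from mouse brain. They are Inhba and Inhbb, which encode the subunits of activin A and activin B, Fst and Fstl3, which encode follistatin and a related protein that bind activins outside the cell, and Acvr1b and Acvr2a, which encode a type I and a type II activin receptor. They were chosen by name, with the response to a social interaction in these same libraries in view, so for the 6 genes that response is described and was not tested. All 6 passed the filter on low counts in every region. In short, Inhba was higher after the interaction in the mPFC, ACC, BLA and vHipp. Fst was higher in the vHipp, with a log2 fold change of 0.96. The fitted log2 fold changes of the other 4 genes, as means over the 3 conditions, stayed between -0.15 and 0.09.

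Activins are dimers of the TGF-beta family. They bind a type II receptor such as the product of Acvr2a, which recruits and activates a type I receptor such as the product of Acvr1b, and this phosphorylates Smad2 and Smad3, which enter the nucleus and regulate transcription. Follistatin holds activin in a complex that cannot reach the receptors. In neurons, Inhba is a known activity-regulated gene, and activin A is known to affect dendritic spines and glutamate receptor signalling.

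The libraries came from punches of 6 brain regions of 41 adult male mice of the outbred CD1 stock, with both hemispheres of a mouse pooled. Litters were raised under standard housing (Ctrl_Veh) or with limited bedding and nesting material in early postnatal life as early life adversity (ELA_Veh and ELA_SAFit2). SAFit2 is an inhibitor of the stress-related co-chaperone FKBP51. It was given to the dam in a slow-release gel and reached the pups through the milk, while the dams of both Veh groups received the gel without it. Of the adult mice, 21 (7 of each condition) were taken without an interaction, here NoInteraction, and 20 (6 Ctrl_Veh, 7 ELA_Veh and 7 ELA_SAFit2) after 10 minutes with an unfamiliar mouse, here SocialInteraction. Each library is 1 region of 1 mouse, so the 6 regions share their mice, and the mice of a condition may share litters.

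Library totals lay between 20804247 and 43351424 estimated counts, and levels are given in CPM, counts scaled to a common TMM-normalized library size. Summed markers of cortex, striatum, thalamus and amygdala had their highest medians in the regions their labels name. The summed level of 5 hippocampal markers was between 320 and 662 CPM in the vHipp and between 597 and 839 CPM in the DMT, so this list did not set the vHipp apart. In the Nacc, 12 of 41 libraries resembled another mouse than the labelled one in genes that differ between individuals. In these 12, the correlation r was between -0.21 and 0.36 with the labelled mouse and between 0.68 and 0.93 with the most similar one. The most similar mice were the same 12 mice in another order, and whether labels were exchanged was not tested. By a smaller margin, 5 libraries in the ACC, 1 in the mPFC, 1 in the BLA and 1 in the vHipp resembled another mouse. In the ACC the values of r lay from near ties, such as 0.365 and 0.379, to 0.546 and 0.809. All were kept under their labels. Of the 12 in the Nacc, 8 were most like a mouse of the other set (NoInteraction or SocialInteraction) and 7 most like one of another condition. Sets and conditions may therefore be mixed in the Nacc. In the other regions 2 ACC, 1 mPFC and 1 BLA library were most like a mouse of the other set. Values without these mismatched libraries are given where they matter.

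The 250 bases before the RefSeq start site of Inhba and Inhbb are shown because these 2 genes encode the subunits and differed in their response to the interaction. Inhba lies on the plus strand (chr13:16011601-16011850, GRCm38.p6) and Inhbb on the minus strand (chr1:119422249-119422498, GRCm38.p6). Capitals mark a TATA box, TATAAA on either strand.

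Inhba: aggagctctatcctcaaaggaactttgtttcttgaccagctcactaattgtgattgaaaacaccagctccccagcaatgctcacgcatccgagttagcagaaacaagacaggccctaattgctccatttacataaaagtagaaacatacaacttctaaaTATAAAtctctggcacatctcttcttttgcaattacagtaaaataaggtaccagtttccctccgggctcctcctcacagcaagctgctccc

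Inhbb: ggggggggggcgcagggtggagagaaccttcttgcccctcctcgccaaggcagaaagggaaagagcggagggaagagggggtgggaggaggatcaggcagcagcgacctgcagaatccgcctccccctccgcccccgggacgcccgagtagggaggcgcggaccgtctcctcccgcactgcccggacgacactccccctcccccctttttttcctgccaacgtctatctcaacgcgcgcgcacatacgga

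The 2 windows differ in composition, with 43.2% G and C in Inhba and 68% in Inhbb. The TATA box of Inhba begins 91 bases before the start site, and 12.4% of 32851 mouse promoter windows of this length hold one. Neither window holds a cyclic AMP response element (TGACGTCA, in 1.55% of windows), its core TGACG (17.8%), an AP-1 site (TGANTCA, 6.75%), an EGR site (GCGNGGGCG, 4.7%), a SMAD box (GTCTAGAC, 0.167%), a CAGACAGAC repeat (0.6%) or a CArG box (1.47%), each searched on both strands. A CRE holds the core TGACG within it. Among the windows of Fstl3, Acvr1b and Acvr2a there was 1 TATA box, 29 bases before the start of Fstl3, and 1 EGR site, 21 bases before the start of Acvr1b. These matches describe letters in 1 window per gene and say nothing of a factor bound there.

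Of the 6 regions, Inhba had its largest response to the interaction in the mPFC. In NoInteraction mice its level was between 6.54 and 19.4 CPM with a median of 11.6, and in SocialInteraction mice between 14.4 and 36.4 CPM with a median of 21.3, a ratio of medians of 1.84. All 20 SocialInteraction libraries lay above the NoInteraction median and 14 lay above every NoInteraction library. The fitted log2 fold change, the mean over the 3 conditions, was 0.87 ± 0.11 (SE).

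The same direction held in each condition in the mPFC. Among Ctrl_Veh mice Inhba was between 9.30 and 17.5 CPM (median 11.1, n = 7) without and between 14.4 and 25.4 CPM (median 18.2, n = 6) with the interaction. Among ELA_Veh mice it was between 11.5 and 14.7 CPM (median 13.1, n = 7) and between 15.9 and 25.1 CPM (median 22.9, n = 7), with no overlap. Among ELA_SAFit2 mice it was between 6.54 and 19.4 CPM (median 10.1, n = 7) and between 18.4 and 36.4 CPM (median 20.2, n = 7), with 1 NoInteraction library inside the SocialInteraction range. The fitted log2 fold changes were 0.66 ± 0.19 in Ctrl_Veh, 0.77 ± 0.19 in ELA_Veh and 1.17 ± 0.19 (SE) in ELA_SAFit2 mice. The library at 36.4 CPM is the 1 mismatched library of the mPFC. Without it the ELA_SAFit2 SocialInteraction range was 18.4 to 28.2 CPM (median 19.9, n = 6), the ELA_SAFit2 response was 1.03 ± 0.18 (SE), and the mean response over the 3 conditions was 0.82 ± 0.10 (SE).

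In the ACC, Inhba had a median of 14.5 CPM (8.69 to 18.5) in NoInteraction and of 21.3 CPM (14.2 to 30.4) in SocialInteraction mice. Here too 14 of 20 SocialInteraction libraries lay above every NoInteraction library, and the log2 fold change was 0.57 ± 0.08 (SE). It was 0.61 without the 5 mismatched libraries. By condition the fold changes were 0.44 in Ctrl_Veh, 0.43 in ELA_Veh and 0.82 in ELA_SAFit2 mice.

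In the BLA, where Inhba was less abundant, the median went from 6.33 CPM (3.32 to 12.3) to 9.75 CPM (6.27 to 20.9), and 6 of 20 SocialInteraction libraries lay above every NoInteraction library. The log2 fold change was 0.68 ± 0.15 (SE). In the vHipp the median went from 8.41 CPM (5.58 to 10.8) to 11.2 CPM (7.68 to 16.0), with 12 of 20 libraries above the whole NoInteraction range and a log2 fold change of 0.46 ± 0.08 (SE). The ranges of both sets overlapped in all of these 4 regions.

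The makeup of these punches was compared beside the shift of Inhba. In the mPFC the 5 cortical excitatory markers summed to a median of 2004 CPM (1691 to 2391) in NoInteraction and 2102 CPM (1411 to 2325) in SocialInteraction mice. Markers of neighbouring tissue varied between single punches in both sets, with olfactory bulb markers between 8.46 and 234 CPM and between 11.6 and 375 CPM in the mPFC, and choroid plexus markers between 26.6 and 5597 CPM and between 23.1 and 5051 CPM in the BLA. No gene of these 3 lists was called in these regions. In the ACC, 1 of 5 astrocyte markers (Gja1, log2 fold change -0.10 ± 0.03 SE, adjusted p = 0.041 in edgeR's test) and 1 of 5 microglia markers (P2ry12, -0.17 ± 0.04, adjusted p = 0.0035) fell after the interaction. The other astrocyte markers were not called there and differed in direction, from Aqp4 at -0.20 ± 0.06 to Aldh1l1 at 0.12 ± 0.04 (SE). The summed astrocyte markers in the ACC were between 666 and 886 CPM and between 669 and 832 CPM, and the microglia markers between 210.0 and 256 CPM and between 185 and 238 CPM. The part of all these markers in the result was not tested. In such bulk tissue, fewer cells of a type and less RNA per cell cannot be told apart.

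With the libraries as labelled, Inhba did not show this shift in the other 2 regions. In the Nacc the medians were 16.7 CPM (7.44 to 27.9) and 19.0 CPM (10.7 to 25.5), with no SocialInteraction library above the NoInteraction range. The log2 fold change was 0.17 ± 0.12 (SE), and 0.27 ± 0.14 without the 12 mismatched libraries, of which 8 were most like a mouse of the other set. Without them it was 0.17 in Ctrl_Veh, 0.30 in ELA_Veh and 0.34 in ELA_SAFit2 mice. Whether mixed labels weakened the Nacc response was not tested. In the DMT the medians were 3.18 CPM (1.30 to 8.53) and 2.93 CPM (1.29 to 13.8), with a log2 fold change of 0.09 ± 0.28 (SE). Its levels varied more between DMT libraries than in any other region, with an SD of 0.71 on the log2(CPM + 1) scale. By condition its DMT fold changes had different signs, 0.67 in Ctrl_Veh, -0.26 in ELA_Veh and -0.14 in ELA_SAFit2 mice, each with an SE of 0.48 to 0.50.

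**Figure D1:**
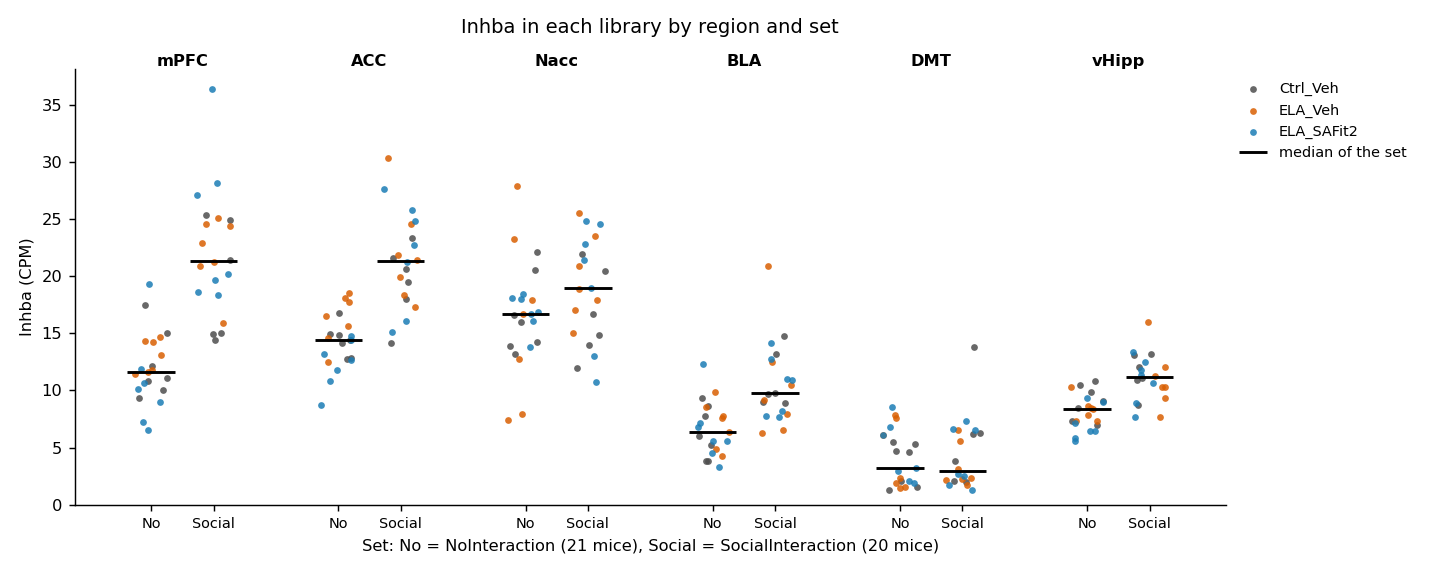
Inhba in each of 41 libraries a region, in CPM on a linear axis, by region and set. Points are libraries coloured by condition and bars are medians. The SocialInteraction medians lie above the NoInteraction medians in the mPFC (21.3 and 11.6 CPM), ACC, BLA and vHipp, while the DMT medians are close (2.93 and 3.18 CPM).

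Inhbb, the gene of the other activin subunit, moved little as a mean over the 3 conditions. Its median in the mPFC was 7.72 CPM (4.997 to 10.8) in NoInteraction and 6.84 CPM (5.25 to 9.74) in SocialInteraction mice, and no SocialInteraction library lay outside the NoInteraction range. Its log2 fold change was -0.15 ± 0.08 (SE) for the mPFC, -0.15 ± 0.10 for the BLA, -0.08 ± 0.05 for the ACC and between -0.02 and 0.08 in the other 3 regions. The 2 subunit genes thus did not shift together in the mPFC, ACC or BLA, where Inhbb had a mean fold change of the opposite sign to Inhba. In the vHipp, 3 of 20 SocialInteraction libraries lay above and 6 below the NoInteraction range of Inhbb. Without the 1 mismatched library its vHipp fold changes were -0.29 ± 0.16 in Ctrl_Veh, 0.28 ± 0.14 in ELA_Veh and -0.18 ± 0.14 (SE) in ELA_SAFit2 mice. No difference in its response between conditions passed the test given below.

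Follistatin shifted in 1 region above all. In the vHipp, Fst was between 1.92 and 4.21 CPM with a median of 3.10 in NoInteraction mice and between 4.03 and 7.79 CPM with a median of 5.79 in SocialInteraction mice, a ratio of medians of 1.87. Of 20 SocialInteraction libraries 17 lay above every NoInteraction library, and 20 of 21 NoInteraction libraries lay below every SocialInteraction library, so the sets nearly separated. The log2 fold change was 0.96 ± 0.10 (SE), and 0.99 without the 1 mismatched library. In Ctrl_Veh mice the median went from 3.19 to 7.29 CPM, in ELA_Veh mice from 2.55 to 4.53 CPM and in ELA_SAFit2 mice from 3.10 to 5.83 CPM, with log2 fold changes of 1.11, 0.85 and 0.93.

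The makeup of the vHipp punches was compared beside this result. The summed hippocampal markers had medians of 481 CPM (388 to 662) in NoInteraction and 535 CPM (320 to 652) in SocialInteraction mice. The 5 choroid plexus markers had a median log2 fold change of -1.45, with summed levels of 17.02 to 291 CPM and 16.7 to 78.1 CPM, and none of them passed the test. The 5 meningeal fibroblast markers were between 37.3 and 106.6 CPM and between 34.4 and 88.2 CPM. The part of these markers in the result was not tested.

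Outside the vHipp, Fst changed less in CPM. In the DMT its log2 fold change was 0.68 ± 0.24 (SE), but its medians were 0.31 CPM (0.12 to 0.77) and 0.49 CPM (0.21 to 1.42), the lowest of any of the 6 genes. On the log2(CPM + 1) scale, which damps low values, the difference of means in the DMT was 0.19. The fold change was 0.25 ± 0.17 for the mPFC, 0.22 ± 0.18 for the BLA, 0.13 ± 0.15 for the Nacc and 0.02 ± 0.13 (SE) for the ACC. The ranges of both sets overlapped widely in these 4 regions. Inhba and Fst therefore had their largest fold changes in different regions, the mPFC and the vHipp, and both were higher in the vHipp.

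**Figure D2:**
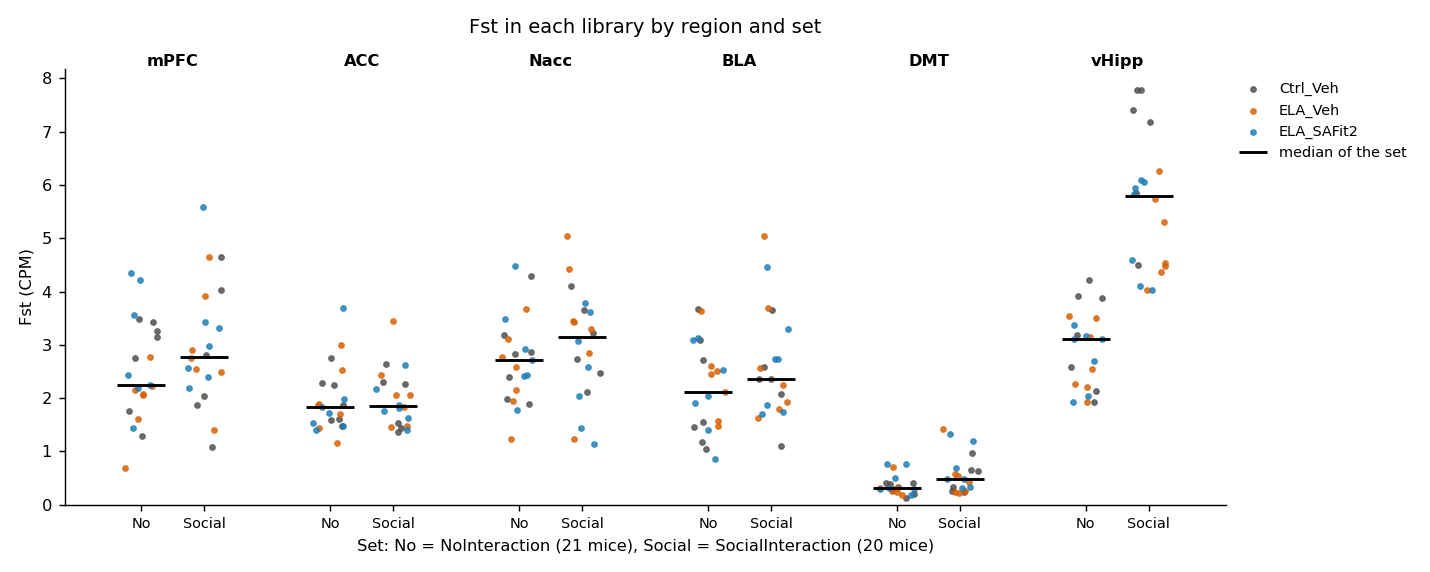
Fst in each of 41 libraries a region, in CPM on a linear axis, by region and set. Points are libraries coloured by condition and bars are medians. In the vHipp the SocialInteraction libraries (4.03 to 7.79 CPM) sit almost wholly above the NoInteraction libraries (1.92 to 4.21 CPM), and the DMT libraries lie near 0.

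Fstl3 had log2 fold changes between -0.12 and 0.00. Its lowest value, -0.12 ± 0.08 (SE), was in the Nacc, with medians of 2.93 CPM (1.68 to 4.07) and 2.68 CPM (2.002 to 3.83), and it was -0.20 without the mismatched libraries. Among the receptors, Acvr1b had fold changes between -0.06 and 0.01 and Acvr2a between -0.05 and 0.09. The largest shift of Acvr1b was in the mPFC, from a median of 183 CPM (150 to 209) to 174 CPM (152 to 192), where 1 of 20 SocialInteraction libraries lay above the NoInteraction median. The largest of Acvr2a was in the BLA, from 107.2 CPM (96.6 to 123) to 116 CPM (83.0 to 129). All of these ranges overlapped.

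**Figure D3:**
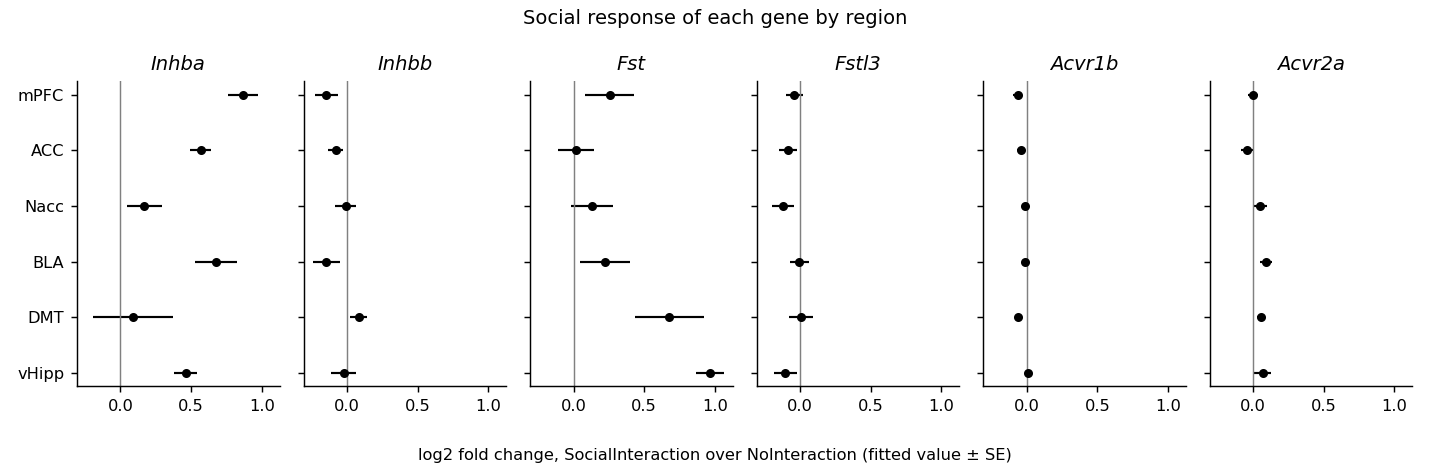
Fitted log2 fold change of SocialInteraction over NoInteraction for each gene (panels) and region (rows), as the mean over the 3 conditions. Points are fitted values and lines are ± 1 SE. Inhba in the mPFC (0.87) and Fst in the vHipp (0.96) lie farthest from 0, and Acvr1b and Acvr2a lie within 0.1 of it in every region.

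How many genes of the whole table responded gives the background. By edgeR's quasi-likelihood test with a Benjamini-Hochberg adjusted p under 0.05, 4.81% of tested genes were higher and 2.59% lower after the interaction in the mPFC, 2.42% and 1.74% in the ACC, and 0.825% and 0.669% in the BLA. The shares were 1.04% higher and 0.555% lower in the DMT, 0.821% higher and 0.388% lower in the vHipp, and 0% in both directions in the Nacc, where 2.46% had an unadjusted p under 0.05. The mismatched Nacc libraries are included in these shares. Because the 6 genes were selected with this contrast in view, their own calls are not given, and nothing about them is read from these shares.

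The activity-regulated genes Fos, Arc, Egr1, Egr2, Npas4, Junb and Nr4a1 give a second background for the interaction. None of them was called in any region. Their median log2 fold change was 0.30 for the mPFC, 0.28 for the ACC, 0.16 for the BLA, 0.20 for the DMT (6 of them tested), 0.16 for the vHipp and -0.16 for the Nacc. In the mPFC they ranged from 0.13 ± 0.21 (Junb) to 0.68 ± 0.35 (SE, Egr2). The range in the ACC was from 0.12 ± 0.14 (Nr4a1) to 0.70 ± 0.27 (SE, Egr2). Fos had 0.31 ± 0.36 (SE) in the mPFC, an SE over 3 times that of Inhba there. Summed over the 7 genes, the mPFC level was between 174 and 1147 CPM in NoInteraction and between 229 and 1013 CPM in SocialInteraction mice.

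The rest of the activin, TGF-beta and BMP pathway was followed with a list of 56 ligands, receptors, binding proteins, Smads and targets outside the 6 genes, of which 53 or 54 were tested per region. Of these, 1 was higher and 0 lower in the mPFC, 1 higher and 1 lower in the BLA, 0 higher and 1 lower in the DMT, 1 higher and 0 lower in the vHipp, and 0 either way in the ACC and the Nacc. At an unadjusted p under 0.05 in edgeR's test the list had 6 of 54 genes in the mPFC, 7 of 54 in the ACC and 1 of 53 in the Nacc. The BLA had 9 of 53, the DMT 7 of 53 and the vHipp 8 of 53. In the same order of regions, 19.49%, 16.99%, 2.46%, 14.76%, 12.67% and 12.89% of all tested genes had such a p. The share of the list was thus lower in the mPFC, ACC and Nacc and slightly higher in the BLA, DMT and vHipp. The list's median log2 fold change was between -0.03 and 0.01 in every region, and that of all genes was 0.00 throughout.

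Fstl4, a follistatin-like gene, was the member of this list that rose in 2 regions. In the BLA it went from a median of 27.1 CPM (21.2 to 37.3) to 34.7 CPM (23.2 to 46.0), with a log2 fold change of 0.34 ± 0.06 (SE) and an adjusted p of 0.0046 in edgeR's test. In the mPFC it went from 23.3 CPM (15.4 to 33.5) to 29.4 CPM (13.8 to 40.4), with 0.34 ± 0.10 and an adjusted p of 0.028. The ranges overlapped in both.

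Among genes downstream of the receptors, Pmepa1, a TGF-beta target that restrains Smad signalling, rose in the vHipp from a median of 27.96 CPM (21.2 to 36.3) to 31.2 CPM (25.7 to 36.2), with a log2 fold change of 0.18 ± 0.04 (SE) and an adjusted p of 0.033 in edgeR's test. Smad2, a direct substrate of the activin type I receptor, fell in the BLA from 36.4 CPM (32.8 to 40.1) to 33.9 CPM (31.2 to 39.2), by -0.08 ± 0.02 and an adjusted p of 0.049. Its log2 fold change was -0.08 in each of the following fits, but the call was lost with the other size factors (adjusted p = 0.057 in edgeR's test), without a gene filter (0.135), with edgeR's own gene filter (0.060) and without the 1 mismatched BLA library (0.059). The BMP receptor gene Bmpr1b fell in the DMT from 20.9 CPM (18.7 to 22.3) to 19.3 CPM (16.6 to 21.6), by -0.11 ± 0.02 and an adjusted p of 0.0041.

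Whether early life adversity or SAFit2 moved the 6 genes was tested in each region as the mean of both sets. None of the 6 genes passed in any of the 18 comparisons, and none passed where the response to the interaction was compared between conditions, in 12 more. Over the 180 tests the smallest adjusted p in edgeR's test was 0.43 and the log2 values lay between -0.94 and 0.61. The unadjusted p was under 0.05 in 17, which is 9.44%, against 4.59% of the tests of all genes, and 9 of the 17 were Inhbb. DESeq2 also called 0 of the 6 genes.

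The background of these comparisons was low. For ELA_Veh against Ctrl_Veh 0.00632% of tested genes were called in the mPFC and 0% in the other 5 regions. For ELA_SAFit2 against ELA_Veh the share was 0.0126% in the mPFC, 0.00625% in the BLA and 0% elsewhere, and for ELA_SAFit2 against Ctrl_Veh it was 0.019% in the mPFC, 0.0252% in the DMT, 0.00636% in the vHipp and 0% elsewhere. For the difference in response between ELA_Veh and Ctrl_Veh 0% were called in every region. Between ELA_SAFit2 and ELA_Veh the ACC had 0.0318%, the Nacc 0.0315%, the DMT 0.0379%, the vHipp 0.0382% and the mPFC and BLA 0%. At an unadjusted p under 0.05 the number of genes over these comparisons was between 327 and 1816.

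Inhbb in the vHipp had the smallest unadjusted p among the 3 condition effects. Without an interaction its levels were alike, with medians of 6.80 CPM (5.80 to 7.72) in Ctrl_Veh, 7.07 CPM (6.13 to 8.37) in ELA_Veh and 7.01 CPM (5.49 to 8.40) in ELA_SAFit2 mice. After it the medians were 5.77 CPM (4.28 to 8.35), 7.50 CPM (5.66 to 13.7) and 6.05 CPM (4.39 to 8.27). The log2 difference of ELA_Veh from Ctrl_Veh over both sets was 0.31 ± 0.11 (SE, unadjusted p = 0.0064, adjusted p = 0.71 in edgeR's test), and that of ELA_SAFit2 from ELA_Veh was -0.28 ± 0.11 (adjusted p = 0.79). Both share the ELA_Veh libraries, and all ranges overlapped.

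For the genes that shifted after the interaction, no difference between conditions passed the test. Fst in the vHipp was lower in ELA_Veh than in Ctrl_Veh mice by a log2 value of -0.32 ± 0.12 (SE, adjusted p = 0.71 in edgeR's test). In SocialInteraction mice alone, its level was 6.75 ± 1.32 CPM in Ctrl_Veh (SD, n = 6), 4.96 ± 0.82 CPM in ELA_Veh (n = 7) and 5.23 ± 0.95 CPM in ELA_SAFit2 mice (n = 7). Inhba in the ACC was lower in ELA_SAFit2 than in ELA_Veh mice by -0.20 ± 0.09 (SE, adjusted p = 0.78), and its response was larger by 0.39 ± 0.18 (SE, adjusted p = 0.9998). In the mPFC, where the responses of Inhba were 1.17 and 0.77 in these 2 conditions, the difference of 0.40 also failed the test.

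**Figure D4:**
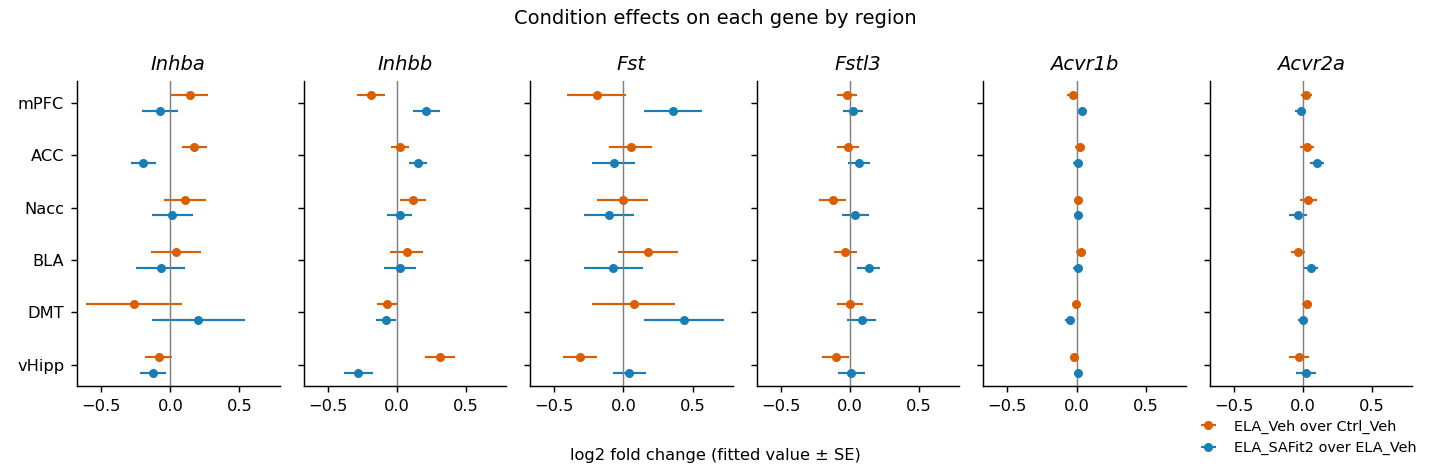
Fitted log2 fold changes of ELA_Veh over Ctrl_Veh (orange) and ELA_SAFit2 over ELA_Veh (blue) for each gene and region, as the mean of both sets. Points are fitted values and lines are ± 1 SE. Inhbb in the vHipp shows 0.31 and -0.28, and none of the values passed the test.

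Since each mouse gave all 6 regions, its counts were also added up to 1 profile per mouse. None of the 6 genes passed for any condition effect, where 0%, 0% and 0.00575% of all genes were called, or for either difference in response, where 0% and 0.0403% were called. The smallest adjusted p over 30 tests was 0.82 in edgeR's test. Of the 30 tests 6.67% had an unadjusted p under 0.05, against 5.29% of those of all genes. Both were Inhbb, whose response differed by 0.24 ± 0.09 between ELA_Veh and Ctrl_Veh and by -0.21 ± 0.09 (SE) between ELA_SAFit2 and ELA_Veh mice, with adjusted p of 0.94 and 0.9996. The 12 mismatched Nacc libraries enter these sums, and without the Nacc 0 of the 6 genes passed as well.

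The 6 genes differed in where they were expressed. Neighbouring regions in the order of each gene's mean log2(CPM + 1) were compared over 41 libraries each with a two-sided permutation test, adjusted over 30 tests, of which 22 passed. These libraries include the SocialInteraction mice, so the same steps in the 21 NoInteraction mice alone, of which 21 passed, are given where a call differed. The smallest p these permutations can give is 1e-05 (adjusted 2.14e-05).

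Inhba was highest in the ACC (4.18 ± 0.37, SD), Nacc (4.17 ± 0.39) and mPFC (4.06 ± 0.53), which did not differ beyond their spread (adjusted p = 0.95 and 0.34 in the permutation test). In NoInteraction mice alone the Nacc (4.08) was above the mPFC (3.66, adjusted p = 0.00163 by permutation). The vHipp (3.37 ± 0.32) and the BLA (3.17 ± 0.51, adjusted p = 0.046 between them by permutation, 0.059 with the other size factors) followed, and the DMT (2.20 ± 0.71) was lowest. Inhbb had nearly the reverse order at its ends. It was highest in the DMT (3.82 ± 0.18), lowest in the Nacc (2.07 ± 0.18), and the mPFC, vHipp and ACC in between had neighbours that did not differ (adjusted p = 0.089 and 0.099 by permutation). In NoInteraction mice the first of these steps, mPFC over vHipp, passed (adjusted p = 0.048).

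Fst was highest in the vHipp (2.30 ± 0.47, SD), above the Nacc (1.90 ± 0.36, adjusted p = 3.75e-05 by permutation), and lowest in the DMT (0.53 ± 0.27). In NoInteraction mice alone the vHipp (1.93 ± 0.27) and the Nacc (1.86 ± 0.31) did not differ beyond their spread (adjusted p = 0.495 by permutation), nor did the BLA and the ACC (0.45, against 0.045 over both sets). Between the Nacc and the mPFC and between the mPFC and the BLA it did not differ beyond the spread (adjusted p = 0.60 and 0.13). Fstl3 was highest in the Nacc (1.93 ± 0.19) and lowest in the DMT (1.19 ± 0.15), with BLA, ACC and mPFC alike in between (1.80, 1.79 and 1.78). All but Inhbb of the 6 genes had their lowest level in the DMT.

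For both receptors every step between neighbours passed over both sets. Acvr1b fell from the mPFC (7.47 ± 0.10, SD) over the ACC (7.41), BLA (7.18), Nacc (7.10) and vHipp (6.96) to the DMT (6.86 ± 0.09), with an adjusted p of 0.032 by permutation for the first step, which was 0.051 in NoInteraction mice alone. Acvr2a was ordered otherwise, from the BLA (6.81 ± 0.14) over the Nacc (6.57), vHipp (6.42), mPFC (6.23) and ACC (5.90) to the DMT (5.09 ± 0.09). The step from the ACC to the DMT, 0.81, was its largest.

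Levels of different genes are compared per kilobase of exon. In NoInteraction mice the median level of Acvr1b was between 26.8 CPM per kb in the DMT and 41.4 in the mPFC, and that of Acvr2a between 5.62 in the DMT and 18.9 in the BLA. The ligand and follistatin genes were far lower on this scale. Inhba was between 0.50 CPM per kb in the DMT and 2.61 in the Nacc, Inhbb between 0.72 in the Nacc and 3.002 in the DMT, Fstl3 between 0.52 in the DMT and 1.197 in the Nacc and Fst between 0.067 in the DMT and 0.68 in the vHipp. Inhba exceeded Inhbb per kilobase in the ACC and the Nacc, both were at 1.81 in the mPFC, and Inhbb was higher in the other 3 regions.

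**Figure D5:**
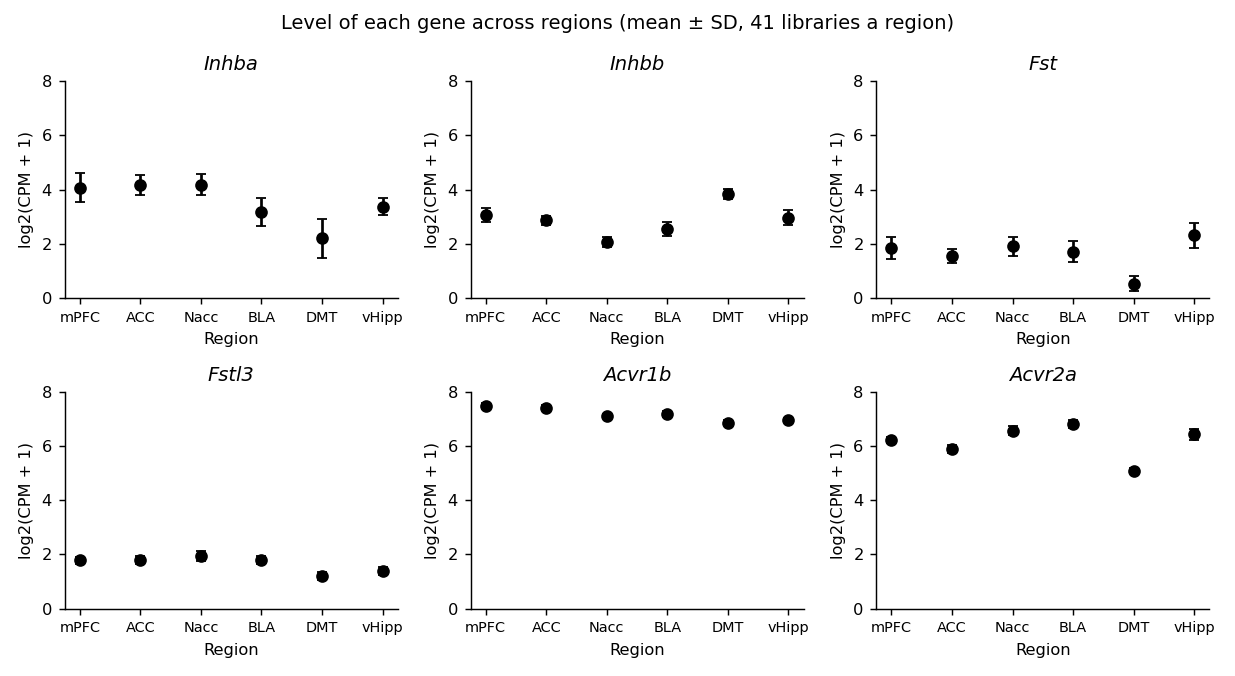
Mean log2(CPM + 1) of each gene by region over 41 libraries, with bars of ± 1 SD, on 1 common axis. Inhbb peaks in the DMT (3.82) where the other 5 genes are lowest, and the receptor genes lie above 5 in every region.

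Within groups, Inhba levels were related between the 2 prefrontal regions of a mouse. Only the mPFC, ACC, BLA and vHipp, where Inhba was higher after the interaction, were compared, and not the Nacc or the DMT. With each library centred on its region, condition and set, Inhba in the mPFC and the ACC had a Pearson r of 0.429 over 41 mice (permutation p = 0.00472, adjusted over 6 pairs of regions 0.0283) and a Spearman rho of 0.461 (permutation p = 0.00265, adjusted 0.0159). Without the 2 mice farthest from the mPFC median, r was 0.476. Without the 6 mice that have a mismatched library in either region it was 0.363 over 35 mice. No p was computed for either of these values. For the ACC and the BLA r was 0.317 (permutation p = 0.0438, adjusted 0.131) and rho 0.337 (adjusted 0.0901). The other 4 pairs, all pairs of the vHipp and that of the mPFC with the BLA, had r between -0.113 and 0.0103.

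The genes whose centred levels followed Inhba most closely over all libraries of the 6 regions, among 15162 genes, were Tpbg (r = 0.67), Cplx2 (0.66), Bcl11a (0.65), Pmepa1 (0.59) and Insyn1 (0.58). Tpbg encodes a membrane glycoprotein, Cplx2 a complexin of synaptic vesicle release, Bcl11a a transcription factor of cortical projection neurons and Insyn1 a protein of inhibitory synapses. Nearest to Fst were Slc38a10 (0.54), Rragd (0.53) and Kcnj2 (0.52), to Inhbb Cds1 (0.50), Ephb3 (0.49) and Fam189a1 (0.46), and to Fstl3 Tmem191c (0.38), Mettl9 (0.38) and Dvl2 (0.35). Nearest to Acvr1b were Phf24 (0.74), Lmtk2 (0.71) and Adgrl1 (0.70) and to Acvr2a Lin7c (0.64), Krba1 (0.59) and Nek10 (0.59). Among the 6 genes themselves the highest values were 0.25 for Fst with Acvr2a and 0.25 for Fst with Inhba. These are descriptions over libraries that share mice, depth and how the punch was cut. Levels were centred but not scaled within groups, so regions with a larger spread weigh more. For Inhba that is the DMT, with an SD of 0.71.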

How the data were processed

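The authors deposited estimated counts per gene, which the table's name attributes to salmon, without scaling for depth or length. STAR, DESeq2 and the builds GRCm39 and mm39 are named in the submitters' processing notes, and versions are not given in the sources used here. Of the values 12.12% were not whole and were rounded. Gene types and exon lengths came from GENCODE M21 (52073 of 56691 identifiers matched, 978 more by RefSeq symbol, 3640 left out). Within a region, testing was limited to protein-coding genes whose counts summed to 100 or more and were above 0 in 6 or more libraries (15722 to 15992 genes). The test was that of edgeR 4.0.16 in R 4.3.3, with TMM factors, a mean for each of 6 groups, the quasi-likelihood test and Benjamini-Hochberg adjustment. The edgeR step was also run on simulated counts, for the social response in the mPFC only and with the same spread for all genes.

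The genes, lists and comparisons were chosen with earlier results of these data known. The text names the 6 genes, up to 3 called pathway genes per region, those called in the sums per mouse and the 5 (Inhba) or 3 (others) genes most like each. The TATA box was added to the searched motifs after the sequences were seen. Promoters are from RefSeq (GRCm38.p6), and 5 of the 6 genes matched, Fst not being among them. Region levels used log2(CPM + 1) and 100000 permutations, with a pseudocount of 1. Regions are paired by mouse, since each mouse gave all 6. Library identity used 60 genes per region that differ between mice. Alternatives were DESeq2 1.42.0, other size factors and gene filters, single conditions or sets, leaving out mismatched libraries, and a mouse block. Leaving out mismatched libraries outside the Nacc, also by condition, and the correlation of Inhba between regions were added after seeing the data. The rest used scipy 1.17.1, numpy 2.4.6, matplotlib 3.10.9 and pandas 2.3.3 in Python 3.11.15. p-values measure the spread between mice, some of which may be littermates.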

Additional observations from a re-analysis of the deposited data

Results flagged for a closer look

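In 14 of 216 groups of 6 or 7 libraries, 1 library stood apart from the rest of its group by Dixon's criterion on log2(CPM + 1). Chance flags about 1 in 20 groups. Inhba, of the activin A subunit, had 1 such library. A library of the ELA_Veh SocialInteraction group had Inhba at 15.93 CPM in the mPFC, below the others at 20.85 to 25.07 CPM. Inhbb, of the activin B subunit, had 3. A library of the ELA_SAFit2 NoInteraction group had Inhbb at 5.973 CPM in the ACC, below the others at 6.795 to 7.333 CPM. The library labelled mouse 37 of the ELA_Veh NoInteraction group had Inhbb at 4.535 CPM in the ACC, below the others at 5.769 to 6.807 CPM. Mouse 15 of the ELA_SAFit2 NoInteraction group had Inhbb at 9.685 CPM in the BLA, above the others at 4.135 to 5.616 CPM. Fst had 3, of which 2 were in the DMT, where it is scarcest. Mouse 15 of the ELA_SAFit2 NoInteraction group had Fst at 3.685 CPM in the ACC, above the others at 1.395 to 1.991 CPM. Mouse 43 of the ELA_Veh NoInteraction group had Fst at 0.6983 CPM in the DMT, above the others at 0.1729 to 0.313 CPM. Mouse 61 of the ELA_Veh SocialInteraction group had Fst at 1.417 CPM in the DMT, above the others at 0.2116 to 0.5707 CPM. Fstl3 had 2. Mouse 63 of the ELA_SAFit2 SocialInteraction group had Fstl3 at 2.002 CPM in the Nacc, below the others at 2.416 to 2.682 CPM. A library of the ELA_SAFit2 SocialInteraction group had Fstl3 at 2.196 CPM in the vHipp, above the others at 1.228 to 1.496 CPM. The receptor gene Acvr1b had 3. The library labelled mouse 89 of the Ctrl_Veh SocialInteraction group had Acvr1b at 136.8 CPM in the ACC, below the others at 162.9 to 171.1 CPM. Mouse 15 of the ELA_SAFit2 NoInteraction group had Acvr1b at 93.29 CPM in the DMT, below the others at 115.4 to 123.8 CPM. Mouse 31 of the ELA_SAFit2 SocialInteraction group had Acvr1b at 93.8 CPM in the DMT, below the others at 107.8 to 117.2 CPM. The receptor gene Acvr2a had 2. The library labelled mouse 89 of the Ctrl_Veh SocialInteraction group had Acvr2a at 40.04 CPM in the ACC, below the others at 54.24 to 60.65 CPM. Mouse 25 of the Ctrl_Veh SocialInteraction group had Acvr2a at 28.44 CPM in the DMT, below the others at 32.56 to 34.97 CPM. Mouse 15 stood apart for 3 genes in 3 regions, and the ACC library labelled mouse 89 for both receptor genes. That library and the ACC library labelled mouse 37 are among those that resembled another mouse.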

How the results depend on the processing

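Of 354 alternative values of the social response of the 6 genes, 346 stayed within 1 SD of the spread between libraries and 8 moved by more. This bound is wide, and a value inside it can still change sign. Inhba in the DMT counted as inside, though its fold changes differed in sign between conditions. Inhba ranged from 0.66 to 1.17 in the mPFC, 0.43 to 0.82 in the ACC, 0.55 to 0.78 in the BLA and 0.36 to 0.63 in the vHipp, and Fst in the vHipp from 0.73 to 1.11. The 8 values were Inhba in the ACC in ELA_SAFit2 mice alone (0.82), Inhbb in the BLA in ELA_Veh (0.13) and ELA_SAFit2 mice alone (-0.41), Inhbb in the vHipp in ELA_Veh mice alone (0.28), Fstl3 in the Nacc in ELA_SAFit2 mice alone (-0.37) and in the DMT in ELA_Veh mice alone (0.21), and Fst in the DMT as a difference of means (0.19) or medians (0.19) of log2(CPM + 1).

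Counts of called genes moved more. Without a gene filter the social response gave 715 genes in the mPFC (1170 with it), 347 in the ACC (653), 90 in the BLA (239), 147 in the DMT (253), 99 in the vHipp (190) and 2 pathway calls (5, with Fstl4 in 2 regions). DESeq2 gave 462 in the BLA, 381 in the DMT, 308 in the vHipp and 8 pathway calls. In the order mPFC, ACC, BLA, DMT and vHipp, Ctrl_Veh mice alone gave 27, 0, 0, 1 and 3 genes, ELA_Veh mice 7, 3, 0, 0 and 0, and ELA_SAFit2 mice 191, 11, 0, 6 and 5, with fewer mice in each, and 0, 0 and 1 pathway calls. The Nacc gave 4 without its 12 mismatched libraries and 0 with them. Condition effects gave 95 calls on 51 genes with DESeq2, and 2 calls in NoInteraction and 1 in SocialInteraction mice (12 calls on 8 genes over both). Over mice they gave 8 without the Nacc and 31 with DESeq2 (1 in the reported fit), never one of the 6 genes. With the mouse as a replicate block, which pairs the regions, 22 of 30 neighbouring regions differed, as without it, and so did 22 without the mismatched Nacc libraries. Other size factors gave 21, losing Inhba between vHipp and BLA. NoInteraction mice alone gave 21, losing Fst between vHipp and Nacc and between BLA and ACC and Acvr1b between mPFC and ACC, and gaining Inhba between Nacc and mPFC and Inhbb between mPFC and vHipp. Of the 20 genes most like a member, 7 remained with centring on region means only, and the cause was not tested. Calls of Fstl4 in the mPFC, Pmepa1 in the vHipp and Smad2 in the BLA were lost without a gene filter (adjusted p = 0.062, 0.067 and 0.135 in edgeR's test). At a median of 0.31 CPM in NoInteraction mice, Fst in the DMT rests on few counts.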
